A study of Homo sapiens with 9 samples.

Results

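Doubling the concentration of epigallocatechin gallate (EGCG), the main polyphenol of green tea, from 40 to 80 µM was compared in MM.1S, an established human multiple myeloma cell line. The comparison used 6 of the 9 RNA-seq libraries, 3 from cells given 40 µM and 3 from cells given 80 µM, each for 24 h. The other 3 libraries came from untreated MM.1S cells (0 µM, the control) and were used to say which responses were already present at 40 µM. Of 60675 gene identifiers in the count table, 15982 passed the filter on low counts and were tested. All cells grew in RPMI medium with foetal bovine serum, and the series set out to learn how EGCG brings about apoptosis in myeloma. MM.1S is 1 cell line, and whether its replicates were grown apart is not recorded, which leaves every p-value a measure of the spread between these libraries, possibly a technical one.

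Cells that meet amino acid shortage, unfolded proteins or oxidants phosphorylate the initiation factor eIF2, which slows translation and raises the transcription factor ATF4. ATF4 switches on genes for amino acid synthesis and import together with its own feedback inhibitors, a programme called the integrated stress response. Oxidants and reactive polyphenols also release NRF2 from KEAP1, and NRF2 then raises antioxidant enzymes. Plasma cells, the lineage of myeloma, secrete large amounts of antibody and depend on protein quality control.

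The libraries held 12674490 to 16427343 counts, at which 3 counts correspond to 0.183 to 0.234 CPM, the count scaled to a common library size. On the first principal component (43.5% of the variance) the control libraries lay at -48.37 to -37.37, the 40 µM libraries at -15.38 to -4.80 and the 80 µM libraries at 50.77 to 53.99. The second component (13.7%) set 40 µM replicate 2 apart at -51.83, so the counts below are also given without it where it mattered. The mitochondrial ribosomal RNAs took 0.649 to 0.731% of the counts in control, 1.28 to 1.63% at 40 µM and 3.97 to 4.65% at 80 µM. Of the markers of other lineages, summed levels at 80 µM were 8.22 to 8.63 CPM for mature B cells, 3.59 to 4.24 for T and NK cells, 2.55 to 2.96 for monocytes and 0.892 to 1.66 for stromal cells. In each of these lists of 6 but the monocyte one, 2 genes had no count in any library. The mature B cell sum (mainly CR2, log2 -0.94) was 14 to 17.4 CPM at 40 µM and the monocyte sum (at 80 µM mainly ITGAM) 0.978 to 1.24 CPM, and their part in the results was not tested. The summed plasma cell markers stood at 12000 to 12900 CPM at 80 µM, against 14900 to 15300 at 40 µM. The gene ITGB7 alone held 3790 to 4070 CPM of this sum at 80 µM and 5010 to 5440 CPM at 40 µM. Of the 19 markers tested, 7 were called lower at 80 than at 40 µM and 2 higher.

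The step from 40 to 80 µM changed 3674 genes, 23% of those tested (edgeR's quasi-likelihood test, Benjamini-Hochberg adjusted p under 0.05, referred to below as called). Of these, 1746 were higher at 80 µM (10.9% of genes tested) and 1928 were lower (12.1%). Larger changes were mostly rises: 689 of the 913 called genes that changed at least 2-fold (5.71% of genes tested) were higher and 224 were lower. The genes that rose had a median level of 15 CPM at 40 µM, those that fell 50.8 CPM, and all genes tested 17.1 CPM. Libraries at 40 and 80 µM did not overlap for 3641 of the 3674 called genes and for 6642 of the 15982 genes tested. The count of 3674 was 2101 without 80 µM replicate 2 and 2288 without 80 µM replicate 3. In bulk RNA, a change in the number of cells of a kind and a change in RNA per cell cannot be told apart.

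Members of the lists for the integrated stress response, amino acid supply and p53 targets were mostly higher at 80 µM, and members of the lists for DNA replication, mitosis and nucleolar ribosome assembly were mostly lower. In these 3 lists 0 genes were higher, with 0 at an unadjusted p under 0.05 and 0 by DESeq2. Cytosolic ribosomal protein genes, with 49 tested, gave 0 calls in either direction in edgeR, where 1 was higher and 3 were lower at an unadjusted p under 0.05. DESeq2 called 1 of them higher and 0 lower, and over all alternatives at most 1 was called higher and 2 lower. The plot of list members called in each direction shows these lists against the shares over all genes.

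**Figure D1:**
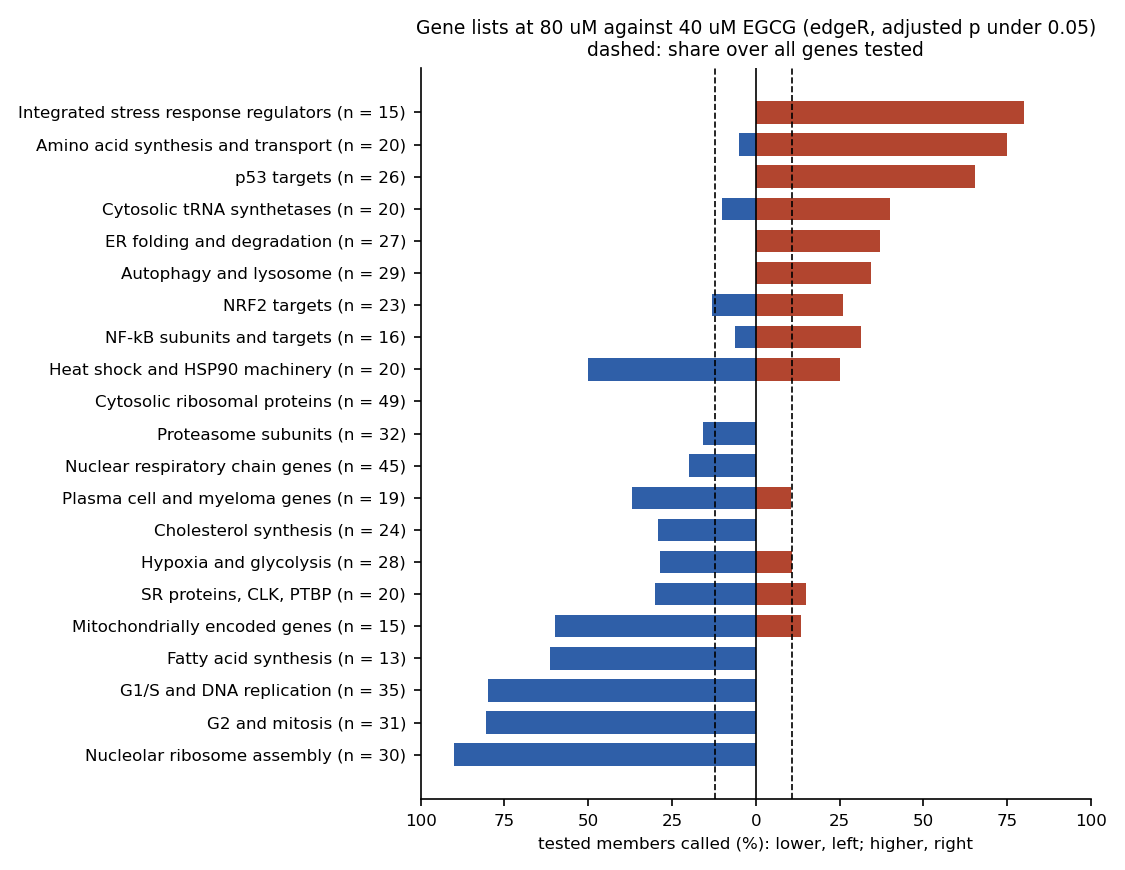
Share of the tested members of 21 gene lists called higher (right, red) or lower (left, blue) at 80 µM against 40 µM, with the number of tested members in parentheses and dashed lines at the shares over all genes, 10.9% higher and 12.1% lower. The integrated stress response regulators reach 12 of 15 higher and the nucleolar assembly factors 27 of 30 lower.

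Upstream sequence of 4 genes is shown because each stands for a list described below and holds a short motif known for a factor that acts on such genes, heat shock factor, ATF4 with its partners, E2F or the MYC family. They were chosen because they hold the motif. The windows are the 250 bases before a RefSeq start in GRCh38.p14, written 5′ to 3′ along the gene's strand, with matches to the motif in capitals. LDHA had 2 such starts, and its window was picked by the number of matches. For HSPA6 (chr1:161524290-161524539, plus strand) the capitals mark the heat shock element pair GAANNTTC. For CHAC1 (chr15:40953221-40953470, plus strand) they mark the CEBP-ATF response element TGATGNAA, here on the opposite strand. For E2F1 (chr20:33686386-33686635, minus strand) they mark the E2F motif TTTNGCGC, and for LDHA (chr11:18394313-18394562, plus strand) the E-box CACGTG.
HSPA6: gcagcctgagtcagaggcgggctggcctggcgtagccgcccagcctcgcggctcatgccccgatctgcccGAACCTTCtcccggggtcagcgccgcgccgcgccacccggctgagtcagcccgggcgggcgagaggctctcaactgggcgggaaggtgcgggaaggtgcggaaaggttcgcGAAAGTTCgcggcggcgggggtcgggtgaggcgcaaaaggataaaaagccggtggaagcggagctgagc
CHAC1: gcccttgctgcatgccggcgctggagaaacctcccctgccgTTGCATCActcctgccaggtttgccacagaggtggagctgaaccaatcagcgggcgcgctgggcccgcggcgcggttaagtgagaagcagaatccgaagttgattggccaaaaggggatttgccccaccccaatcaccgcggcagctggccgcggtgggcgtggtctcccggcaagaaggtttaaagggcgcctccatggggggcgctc
E2F1: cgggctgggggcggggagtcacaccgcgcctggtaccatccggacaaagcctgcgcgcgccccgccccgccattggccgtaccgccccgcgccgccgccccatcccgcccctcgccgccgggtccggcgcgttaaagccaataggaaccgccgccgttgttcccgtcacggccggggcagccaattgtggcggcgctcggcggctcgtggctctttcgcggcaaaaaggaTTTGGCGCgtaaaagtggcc
LDHA: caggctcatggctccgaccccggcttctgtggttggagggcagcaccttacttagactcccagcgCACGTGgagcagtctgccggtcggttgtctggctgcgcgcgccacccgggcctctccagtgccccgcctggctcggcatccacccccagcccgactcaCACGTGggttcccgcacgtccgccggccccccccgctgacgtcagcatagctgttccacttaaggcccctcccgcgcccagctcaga

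A promoter was found for 10662 of the 15962 symbols tested, and both strands were searched. A gene with several starts was counted if any of its windows held the motif. The heat shock pair was present before 11 of 19 heat shock genes (57.9%) and 5.81% of all genes. Among the 11, HSPA6, DNAJB1 and SERPINH1 were called higher at 80 than at 40 µM, as was HSPA1B, which passed the filter on low counts through its 80 µM libraries. HSPA8, HSP90AA1, HSP90AB1 and DNAJA1 were called lower, and CHORDC1, HSPB1 and HSPD1 were not called. The E2F motif was present before 10 of 29 replication genes (34.5%) and 3.16% of all genes. The CEBP-ATF element was present before 3 of 14 stress response regulators (21.4%), 3 of 16 tRNA synthetases (18.8%) and 2.32% of all genes. The E-box was present before 8 of 24 hypoxia and glycolysis genes (33.3%) and 11.3% of all genes. Of the 8, LDHA, HK2 and ANKRD37 were called lower and the rest were not called. In the list of MYC and nucleolar factors it was present before 4 of 24 (16.7%). Another motif, the antioxidant core TGACNNNGC, was present before 5 of 17 NRF2 targets (29.4%) and 15.9% of all genes. Among the 4 windows, no match of another of these motifs overlapped the capitals. Over all genes called higher, the CEBP-ATF element was present before 4.0%, and over those called lower before 2.05%. In the same order, the shares were 6.44% and 5.74% for the heat shock pair and 11.4% and 12.7% for the E-box. They were 3.1% and 4.25% for the E2F motif and 17.9% and 13.5% for the antioxidant core. These matches describe the letters upstream and say nothing of binding.

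Of 15 regulators of the integrated stress response tested, 12 were higher at 80 than at 40 µM and 0 lower, against 10.9% and 12.1% of all genes. Of the 12, 8 had already risen at 40 µM. The median log2 fold change was 1.60 over the list and -0.0107 over all genes. TRIB3, a pseudokinase that restrains ATF4 signalling, stood at 111, 125 and 116 CPM at 40 µM and at 586, 546 and 584 CPM at 80 µM, a log2 fold change of 2.29 (SE 0.11, edgeR adjusted p = 6.27e-06). Its control libraries lay at 31.2 to 39.7 CPM, so the 3 doses did not overlap and each step rose. GDF15, a stress hormone that suppresses appetite, went from 5.25 to 5.40 CPM at 40 µM to 40.1 to 47.1 CPM at 80 µM (log2 fold change 3.01, SE 0.28, adjusted p = 0.0002), with control libraries between 0 and 0.446 CPM. CHAC1, which degrades glutathione and whose promoter is printed above, rose from 10.1 to 10.4 CPM to 28.9 to 32.8 CPM, a log2 fold change of 1.60 (SE 0.12). DDIT3 (CHOP), a transcription factor tied to cell death after stress, rose by 1.78 (SE 0.19) and CEBPB, its relative, by 1.74 (SE 0.12), both on the log2 scale.

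Of the same list, PPP1R15A (GADD34), which directs the removal of the phosphate from eIF2, belonged to the higher dose. PPP1R15A had 159, 112 and 130 CPM at 40 µM, where 40 µM against control was not called (log2 0.32, adjusted p = 0.202), and 475, 501 and 513 CPM at 80 µM (log2 1.89, SE 0.13, edgeR adjusted p = 5.21e-05). ATF4 itself varied too much to be called, with 190, 379 and 151 CPM at 40 µM and 749, 222 and 728 CPM at 80 µM. ATF3 reached 183 CPM in 1 library of the 80 µM group against 52.2 and 63.7 CPM in the other two, and was no longer called without that library (80 µM replicate 3) or without 40 µM replicates 1 or 3.

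Genes for amino acid supply followed, with 15 of 20 higher and 1 lower, against 10.9% and 12.1% of all genes. The lower one was ALDH18A1, of proline synthesis (log2 -0.87). SLC7A11, the cystine importer, had 41.8, 43.8 and 59.1 CPM at 40 µM and 166, 171 and 156 CPM at 80 µM. Its partner chain SLC3A2 went from 380 to 487 CPM to 1030 to 1190 CPM. Both had no overlap between doses, as was the case for most called genes, with log2 fold changes of 1.77 (SE 0.21) and 1.41 (SE 0.12). PSAT1 of serine synthesis rose by 1.15 (SE 0.10), asparagine synthetase ASNS by 1.13 (SE 0.19) and the mitochondrial folate enzyme SHMT2 by 0.82 (SE 0.12). The transporters SLC7A5 (log2 0.15) and SLC1A4 (log2 0.00) were not called. Among 20 cytosolic aminoacyl-tRNA synthetases, which charge tRNAs with amino acids, 8 were higher, led by CARS1 at 1.15 and WARS1 at 1.07. A share near the 12.1% of all genes was lower, 2 genes: FARSB at -0.72 and FARSA at -0.55. FARSA was not called without 40 µM replicate 1 or 80 µM replicate 1 or 2.

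Protein folding genes moved in both directions. In the endoplasmic reticulum list, 10 of 27 were higher and 0 lower (3 lower at an unadjusted p under 0.05), against 10.9% and 12.1% of all genes. Among the 10 was the stress sensor ERN1 (IRE1), which had 398, 400 and 423 CPM at 40 µM and 911, 1050 and 1010 CPM at 80 µM (log2 1.28, SE 0.09, edgeR adjusted p = 5.21e-05). HSPA5 (BiP), the main chaperone there, rose from 1380 to 1510 CPM to 2330 to 2470 CPM (log2 0.74, SE 0.09), and DNAJB9, its co-chaperone, by 1.05 (SE 0.13). XBP1, the mRNA that IRE1 splices, was not called (log2 -0.25).

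In the heat shock list, whose members are not all cytosolic, 5 of 20 were higher and 10 lower, against 10.9% and 12.1% of all genes. HSPA6, an inducible HSP70 whose promoter is printed above, had 3.48, 2.66 and 2.77 CPM at 40 µM and 35.1, 35.4 and 38.3 CPM at 80 µM, the largest rise among the genes named by the rule (log2 3.60, SE 0.17, edgeR adjusted p = 6.27e-06). The co-chaperones DNAJB1 and BAG3 rose by 1.00 (SE 0.20) and 0.80 (SE 0.12), and the collagen chaperone SERPINH1 by 1.87 (SE 0.27) at under 7 CPM in every library. HSPA1B, at 0.955 to 1.95 CPM at 80 µM, is nearly identical to HSPA1A, which had at most 0.0766 CPM, so the split between these copies is uncertain. HSPA1B lay lower still at 40 µM (log2 2.03 for 80 against 40 µM) and in control, and passed the filter on low counts through its 80 µM libraries. Its place among the 5 higher members is therefore no support. Among the members that fell were abundant ones. HSPA8, the housekeeping HSP70, had 1770, 2150 and 1690 CPM at 40 µM and 1230, 1070 and 1220 CPM at 80 µM (log2 -0.67, SE 0.14), and the HSP90 co-chaperone FKBP4 fell by 0.73 (SE 0.12). The count of lower members was 6 without 40 µM replicate 2 and 5 without 80 µM replicate 2 or 3, and HSP90AA1 (log2 -0.48) and HSP90AB1 (log2 -0.38) were not called without either of those 80 µM libraries. HSP90AA1 was also not called without 40 µM replicate 2 or 3.

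Targets of p53, the transcription factor that arrests or kills damaged cells, were higher in 17 of 26 tested and lower in 0 (1 at an unadjusted p under 0.05). Of all genes 10.9% were higher and 12.1% lower. The median log2 fold change of the p53 list was 0.66. TNFRSF10B, the death receptor DR5 and a target of CHOP as well, had 53.6, 53.4 and 49.7 CPM at 40 µM and 192, 180 and 184 CPM at 80 µM (log2 1.83, SE 0.09, edgeR adjusted p = 6.27e-06). BBC3 (PUMA), which opposes BCL2 at the mitochondrion, went from 17.1 to 38.2 CPM to 92.6 to 126 CPM (log2 2.07, SE 0.27). The p53 inhibitor MDM2 rose by 0.88 (SE 0.12) and the cell cycle inhibitor CDKN1A (p21) by 1.41 (SE 0.32), with 354, 327 and 117 CPM at 80 µM. The CPM gene, a carboxypeptidase that also ranked among the largest rises (log2 2.35), overlaps MDM2 on the opposite strand, and reads from overlapping genes cannot be told apart here.

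Some survival genes rose as well. BCL2, the founding inhibitor of mitochondrial apoptosis, had 96.2, 98.7 and 95.2 CPM at 40 µM and 231, 239 and 237 CPM at 80 µM (log2 1.28, SE 0.12, edgeR adjusted p = 0.0002). CFLAR (c-FLIP), which blocks caspase-8, went from 76.0 to 79.7 CPM to 235 to 242 CPM (log2 1.61, SE 0.22), and MCL1 rose by 0.54 (SE 0.11). Together 4 of 10 anti-apoptotic genes were higher and 1 was lower, BIRC5 (survivin, log2 -0.82), a gene of dividing cells whose call was lost without 80 µM replicate 2. Of 10 pro-apoptotic BCL2 family genes, 3 were higher (BBC3, BMF at 0.79 and BAX at 0.57) and 1 lower (BID at -0.42). In both lists the share that was lower lay near the 12.1% of all genes. BAX was not called when any 1 library of the 80 µM group, or 40 µM replicate 2 or 3, was left out, nor BID without control replicate 1, 40 µM replicate 2 or 3, or 80 µM replicate 2 or 3. Of 12 caspase pathway genes 2 were higher and 2 lower, shares near the 10.9% and 12.1% of all genes, and 1 was higher without control replicate 3, 40 µM replicate 2 or 3, or any 1 of the 80 µM libraries. Neither BCL2 nor CFLAR was called at 40 µM against control (log2 -0.39 and -0.21).

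**Figure D2:**
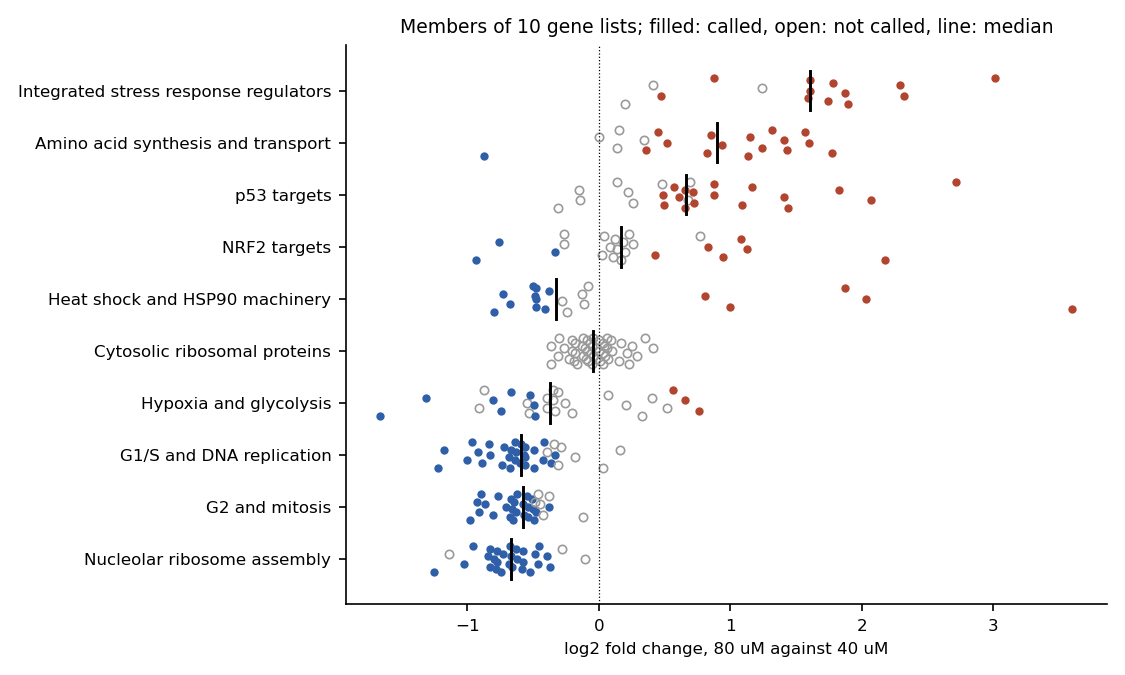
Each point is a tested gene, placed by its log2 fold change at 80 µM against 40 µM, for 10 gene lists, with filled points for called genes, open points for genes not called and a black line at the list's median. The heat shock list has its median below 0 while HSPA6 lies at 3.60, and the cell cycle and nucleolar lists have nearly every point below 0.

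Genes of DNA replication were lower at 80 µM in 28 of 35 tested and higher in 0, against 12.1% and 10.9% of all genes. The count of 28 was 24 without 40 µM replicate 2 and 19 without 80 µM replicate 2 or 3. The median log2 fold change was -0.589 for 80 against 40 µM and 0.0293 for 40 µM against control, where edgeR called 0 of the 35 in either direction (5 higher and 2 lower at an unadjusted p under 0.05). CCNE1 (cyclin E1), which starts S phase, had 35.4, 33.0 and 34.3 CPM at 40 µM, close to its 36.4 to 38.4 CPM in control, and 14.6, 14.3 and 16.4 CPM at 80 µM (log2 -1.18, SE 0.11, edgeR adjusted p = 0.000201). The phosphatase CDC25A fell by 1.22 (SE 0.15), the replication factor MCM10 by 1.00 (SE 0.11) and the transcription factor E2F1 by 0.57 (SE 0.12) on the log2 scale. For 21 of the 35, the 95% interval of the change from control to 40 µM lay within 1.5-fold either way and 80 µM was called lower than both control and 40 µM.

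Genes of G2 and mitosis were lower in 25 of 31 and higher in 0, against 12.1% and 10.9% of all genes. Their median was -0.579 (0.191 at 40 µM against control). CCNA2 (cyclin A2) had 242, 269 and 256 CPM at 40 µM and 158, 131 and 133 CPM at 80 µM, a log2 fold change of -0.86 (SE 0.10). MAD2L1, of the spindle checkpoint, fell by 0.93 (SE 0.12). The count of 25 was 18 without 40 µM replicate 2, 16 without 40 µM replicate 3, 14 without 80 µM replicate 2 and 19 without 80 µM replicate 3. TUBA1B, the main alpha-tubulin, fell from 1910 to 2180 CPM to 936 to 958 CPM (log2 -1.14, SE 0.11), and an antisense transcript at its locus, TUBA1B-AS1, is counted from overlapping sequence.

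The list of MYC and nucleolar factors, which build ribosomes, was lower in 27 of 30 and higher in 0, against 12.1% and 10.9% of all genes. The share of 27 in 30 was the highest of any list with 10 or more tested members. The count of 27 was 24 without 40 µM replicate 2, 21 without 80 µM replicate 2 and 23 without 80 µM replicate 3. NOP16 had 75.9, 80.3 and 70.1 CPM at 40 µM and 34.8, 38 and 38.5 CPM at 80 µM (log2 -1.02, SE 0.11, edgeR adjusted p = 0.000393). NOP56, of the complex that modifies ribosomal RNA, fell by 0.74 (SE 0.09). MYC itself was not called, with 54.7, 18.1 and 52.1 CPM at 40 µM and 13.7, 31.1 and 11.8 CPM at 80 µM. MYB, another growth-promoting transcription factor, fell from 44.8 to 68.2 CPM to 18.4 to 21.9 CPM (log2 -1.41, SE 0.21).

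Several glycolytic enzymes fell. LDHA, which makes lactate and whose promoter is printed above, had 1170, 1360 and 1120 CPM at 40 µM and 519, 361 and 274 CPM at 80 µM (log2 -1.66, SE 0.21, edgeR adjusted p = 0.000709). TPI1 fell by 1.32 (SE 0.12) and hexokinase HK2 by 0.80 (SE 0.10). In the list of hypoxia targets and glycolysis 8 of 28 were lower, against 12.1% of all genes. The 3 that were higher, a share near the 10.9% of all genes, were the glucose transporter SLC2A3 (log2 0.76), the mitophagy receptor BNIP3L (0.65) and VEGFA (0.56). Fatty acid synthesis was lower in 8 of 13 and higher in 0 (5 lower without 80 µM replicate 2 or 3), with SCD, the desaturase, at 102 to 126 CPM at 40 µM and 53.3 to 57.3 CPM at 80 µM (log2 -1.09, SE 0.11). Cholesterol synthesis was lower in 7 of 24 and higher in 0, with DHCR7, of the last steps of that pathway, at -0.73.

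Nuclear genes of the respiratory chain were lower in 9 of 45 and higher in 0, with NDUFB3 of complex I at -0.89 and a list median of -0.266. That count was 4 without 40 µM replicate 1 or 80 µM replicate 1, 1 without 80 µM replicate 2 and 2 without 80 µM replicate 3. Proteasome subunits were lower in 5 of 32, a share near the 12.1% of all genes, and this count was 2 without 40 µM replicate 2, 0 without 80 µM replicate 2 and 1 without 80 µM replicate 3.

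Transcripts of the mitochondrial genome moved in opposite directions. The ribosomal RNA MT-RNR1 had 958, 1180 and 960 CPM at 40 µM and 4760, 4130 and 4550 CPM at 80 µM (log2 2.12, SE 0.12, edgeR adjusted p = 1.14e-05), and MT-RNR2 rose by 1.49 (SE 0.14). All 13 mitochondrial mRNAs had values below 0. Of them 9 were called lower, against 12.1% of all genes, led by MT-ND3 (log2 -0.88, SE 0.13). Over the list of 15 the median at 40 µM against control was 0.295. At 80 µM against control 4 of the 15 were lower and 2 higher, so not every mRNA that fell from 40 µM was called below control. The count of 9 was 4 without 40 µM replicate 2, 80 µM replicate 1 or 80 µM replicate 2, and 5 without 40 µM replicate 3 or 80 µM replicate 3. The part of library preparation in the rise of the ribosomal RNAs was not tested. With both removed before scaling, 3641 genes were called.

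**Figure D3:**
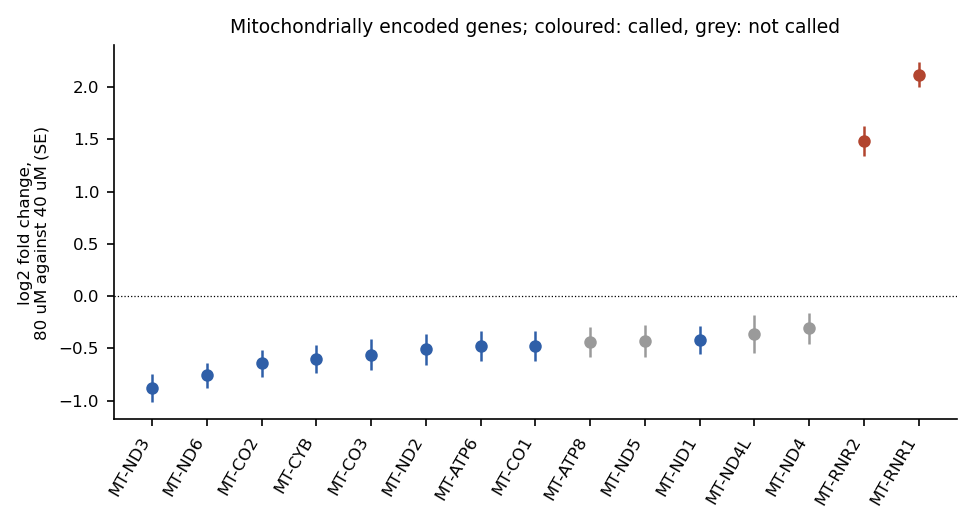
Log2 fold change at 80 µM against 40 µM for 15 mitochondrially encoded genes, with bars of 1 standard error, red for called higher, blue for called lower and grey for not called. MT-RNR1 and MT-RNR2 lie at 2.12 and 1.49 and the 13 mRNAs lie below 0.

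How each gene's response was shaped across the doses was read from the same fit, and its contrasts share libraries. The steps from control to 40 µM and from 40 to 80 µM share the 40 µM libraries, so a chance deviation there enters both with opposite sign. The contrasts of 80 µM against 40 µM and against control share the 80 µM libraries. At 40 µM against control 238 genes were higher (1.49% of genes tested) and 130 lower (0.813%), 368 in all. At 80 µM against control 2777 were higher (17.4%) and 2797 lower (17.5%). Of the 368, 199 (54.1%) were called again in the same direction between 40 and 80 µM and are said to have gone further. For 78 (21.2%) the second step was not called and its 95% interval lay within 1.5-fold either way, and these are said to have levelled off. In 21 (5.71%) the second step was called in the opposite direction, that is, they turned back, and 70 (19%) were undecided. A further 2796 genes not called at 40 µM were called at 80 µM against both 40 µM and control in the same direction, 1300 higher and 1496 lower. In 1666 of these, 610 higher and 1056 lower, the interval of the first step lay within 1.5-fold.

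**Figure D4:**
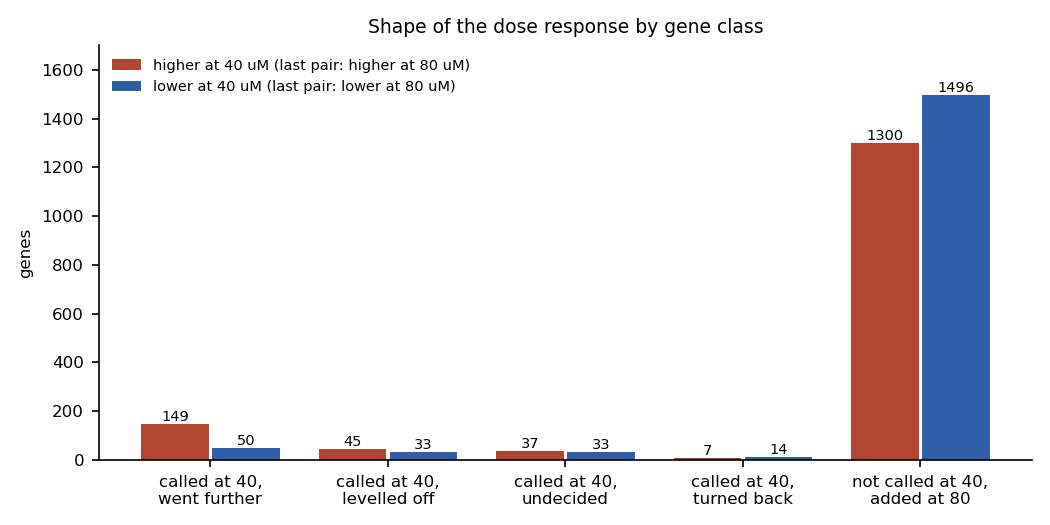
Number of genes in each class of dose response, split by the direction of the change at 40 µM against control, or for the last pair by the direction at 80 µM. The 2796 genes added at 80 µM outnumber the 368 called at 40 µM, of which 149 higher and 50 lower went further.

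These class sizes rest on the calls at 40 µM and moved with single libraries. Genes that went further numbered 86 and 100 when control replicate 1 or 3 was left out, 104 and 90 without 40 µM replicates 2 and 3, and 132, 121 and 128 without 80 µM replicates 1, 2 and 3. Genes that levelled off numbered 23 and 27 without control replicates 1 and 3, 130, 24 and 16 without 40 µM replicates 1, 2 and 3, and 43, 37 and 41 without 80 µM replicates 1, 2 and 3. Genes that turned back numbered 7 and 10 without control replicates 1 and 3, 38 without 40 µM replicate 1, and 10 without either 80 µM replicate 2 or 3. Genes added at 80 µM numbered 1684 and 1850 without 80 µM replicates 2 and 3, and those flat to 40 µM 1045 without control replicate 1 and 923 and 1003 without those 80 µM libraries.

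Of the genes that levelled off, 45 had risen and 33 had fallen at 40 µM, and 9 of the 78 kept the class in all 15 alternative settings tried. Of 23 NRF2 targets tested, 10 were higher at 40 µM, where 1.49% of all genes were, and 6 of those 10 levelled off, against 45 of the 238 genes that rose: HMOX1, NQO1, GCLM, GCLC, GSR and FTL. HMOX1, which breaks down haem, had 30.6, 27.1 and 38.4 CPM in control, 119, 84.4 and 108 CPM at 40 µM and 114, 111 and 117 CPM at 80 µM. Its first step was 1.69 on the log2 scale (SE 0.16, edgeR adjusted p = 0.000484) and its second 0.14 (95% interval -0.20 to 0.48). NQO1, a quinone reductase, had 14.9 to 18.1, 36.3 to 43.2 and 42.9 to 44.3 CPM in control and at the 2 doses, so its 40 and 80 µM libraries overlapped. GCLM, the modifier subunit of the enzyme that limits glutathione synthesis, rose by 0.82 at the first step, and its second was 0.23 (95% interval -0.02 to 0.47). The calls of GCLC, GSR and FTL at 40 µM were lost in 11, 10 and 4 of the alternatives, they kept the class in 4, 5 and 9 of 15 settings, and these 3 genes were chosen after their values were seen.

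Not all NRF2 targets levelled off. FTH1, the ferritin heavy chain that stores iron, had 72.6 to 83.8 CPM in control, 152 to 177 CPM at 40 µM and 340 to 368 CPM at 80 µM, log2 steps of 1.10 (SE 0.10) and 1.13 (SE 0.10). The autophagy receptor SQSTM1 (p62) rose again by 1.08 (SE 0.11), and OSGIN1, an oxidative stress response gene, by 2.17 (SE 0.29) from 3.06 to 4.46 CPM at 40 µM to 15.5 to 16.9 CPM. Over the list 6 were higher and 3 lower at 80 against 40 µM, the latter a share near the 12.1% of all genes. One of the lower genes was PRDX1, a peroxidase, at -0.76 (SE 0.15).

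Of the genes that fell and then levelled off, DUSP1, a phosphatase that switches off MAP kinases, had 141, 131 and 156 CPM in control, 40.3, 37.4 and 35.9 CPM at 40 µM and 43.2, 37.0 and 39.7 CPM at 80 µM. Its first step was -1.91 (SE 0.11, edgeR adjusted p = 7.35e-05) and its second 0.08 (95% interval -0.17 to 0.32). PTBP1, a splicing repressor, had 657 to 733 CPM in control, 230 to 262 CPM at 40 µM and 236 to 246 CPM at 80 µM. KLF2, a quiescence factor, and ZFP36L2, which destabilises mRNAs, fell by 0.96 (SE 0.09) and 0.98 (SE 0.09) at the first step, and their second steps were -0.03 and -0.19. The linker histone H1-2 fell by 1.00 (SE 0.14), with a second step of -0.15. DUSP1, PTBP1, KLF2, ZFP36L2, H1-2, NQO1 and GCLM kept the class in all 15 settings, and HMOX1 in 14. Other genes that fell at 40 µM continued: HES1, a Notch target, fell by 1.57 and then by 0.80, and RGS1, which dampens G protein signalling, by 1.97 and then by 0.72.

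Of the 21 genes that turned back, 7 had risen and 14 had fallen at 40 µM, and 4 kept the class in all 15 settings: TFRC, OXSM, NR4A1 and DNAL1. TFRC, the transferrin receptor that brings iron into cells, had 506, 534 and 399 CPM in control, 907, 1020 and 1020 CPM at 40 µM and 664, 618 and 583 CPM at 80 µM. The 3 groups did not overlap, which for 40 and 80 µM was a condition of the rule for naming genes that turned back. The steps of TFRC were 1.04 (SE 0.12) and -0.66 (SE 0.12, edgeR adjusted p = 0.00405). OXSM, of mitochondrial fatty acid synthesis, had 11.3, 13 and 14.3 CPM in control, 24.3, 27.7 and 25.6 CPM at 40 µM and 15, 12.4 and 17.3 CPM at 80 µM, where it overlapped the control.

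NR4A1, an immediate early nuclear receptor, had 19.4, 17.0 and 17.1 CPM in control, 2.81, 2.45 and 2.99 CPM at 40 µM and 6.92, 9.81 and 6.86 CPM at 80 µM, so that it regained part of what it had lost (log2 -2.69, then 1.52, SE 0.19 each). DNAL1, a dynein light chain of cilia, had 7.29, 7.36 and 5.05 CPM in control, 1.53, 1.22 and 1.68 CPM at 40 µM and 7.14, 8.47 and 8.73 CPM at 80 µM (log2 -2.15, then 2.45, SE 0.23 each). UVSSA, of transcription-coupled DNA repair, went from 18.2 to 20.9 CPM in control to 10.9 to 13 CPM and then to 38.8 to 55.2 CPM, above control. Its second step of 2.00 (SE 0.15) was called in every setting, while its fall at 40 µM (log2 -0.70, adjusted p = 0.0444) was not, and it kept the class in 4 of the 15. FOS, with 36.7 to 39.7, 5.33 to 7.46 and 7.20 to 13.2 CPM at the 3 doses, overlapped between 40 and 80 µM, and its second step (log2 0.67, adjusted p = 0.045) lost its call in 10 of 16 alternatives. The second step of DDIT4 (REDD1), an inhibitor of mTORC1, was 0.47 (adjusted p = 0.0483) and lost its call in 11 of them.

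Among 19 immediate early genes, which respond to growth signals within minutes, 7 were lower at 40 µM and 0 higher, against 0.813% and 1.49% of all genes. Of those 7, 2 turned back (NR4A1 and FOS), 2 levelled off (DUSP1 and KLF2), 2 were undecided (JUNB and NR4A2) and DUSP2 went further (log2 -1.11, SE 0.15). Of the 19, 4 were higher at 80 against 40 µM, against 10.9% of all genes, and 2 were lower, a share near the 12.1% of all genes. Without 40 µM replicate 2 or 80 µM replicate 3, 2 were higher, a share near the 10.9% as well.

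**Figure D5:**
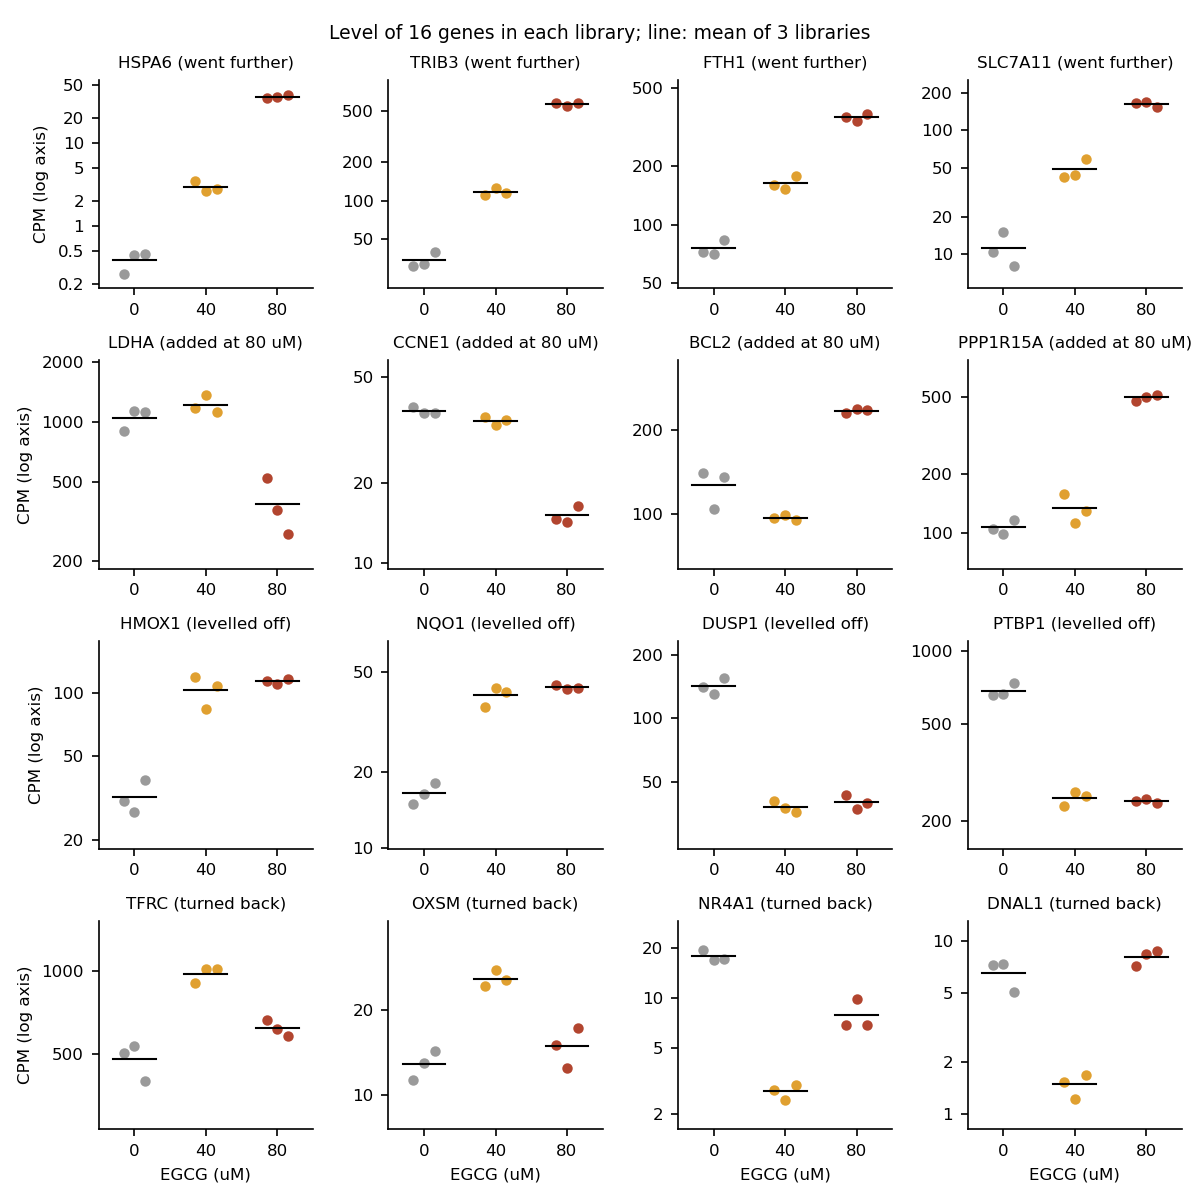
CPM on a log axis in each of the 9 libraries at 0, 40 and 80 µM for 16 genes, 4 of each class of dose response, with a line at each mean of 3 libraries. HMOX1, NQO1, DUSP1 and PTBP1 sit at similar levels at both doses, and TFRC, OXSM, NR4A1 and DNAL1 move back toward or past control at 80 µM.

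The second step was compared with the first directly, as the signed log2 change from 40 to 80 µM minus that from control to 40 µM, so a gene that turned back can differ although its steps are alike in size. It was called for 47 genes (0.294% of genes tested), 26 positive and 21 negative, and 3017 genes had an unadjusted p under 0.05. The count was 10 and 14 when control replicate 1 or 2 was left out, 14, 13 and 20 without 40 µM replicates 1, 2 and 3, and 25, 13 and 12 without 80 µM replicates 1, 2 and 3, while DESeq2 called 705. DNAL1 (4.60, SE 0.42), NR4A1 (4.21, SE 0.35), UVSSA (2.70, SE 0.28) and DUSP1 (1.99, SE 0.20) were called in all 15 alternatives. FOS and PTBP1 were called in 14, and TFRC in 13 (difference -1.70, edgeR adjusted p = 0.0143).

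Of genes with a larger second than first step, BCL2 had a difference of 1.67 (SE 0.21, adjusted p = 0.0162) and kept its call in 11 of the 15 alternatives. PPP1R15A (1.57) and ERN1 (1.14) each kept theirs in 7, and MCM10 (-1.34), whose fall came at the second step, in 8. For HMOX1 (-1.55, adjusted p = 0.0465) and NQO1 (-1.19, adjusted p = 0.0468) the first step was the larger, a difference called in 7 and 5 of the alternatives. For TRIB3 (0.52, adjusted p = 0.182), SLC7A11 (-0.35, adjusted p = 0.629) and FTH1 (0.03, adjusted p = 0.949) a difference between the steps was not detected.

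Genes named only for the size of their change included some outside the lists. CREB5, a transcription factor, had 1.71, 0.72 and 2.84 CPM at 40 µM and 18.1, 17.8 and 6.70 CPM at 80 µM (log2 3.01, SE 0.53). SCN4A, a muscle sodium channel, went from 1.22 to 2.26 CPM to 9.44 to 15.6 CPM (log2 2.90, SE 0.32). Of the largest falls, the tight junction protein CGN went from 9.07 to 17.5 CPM to 3.04 to 4.14 CPM (log2 -1.84, SE 0.25), and GJA1 (connexin 43), of gap junctions, from 35.9 to 39.1 CPM to 12.2 to 14.1 CPM (log2 -1.50, SE 0.12). The call of NPIPA8 (log2 3.25) rested on 1 library with 30.1 CPM against 2.80 and 1.64 CPM in the other two, that of STIMATE-MUSTN1 (log2 2.31) on 1 with 27.4 CPM, in both cases 80 µM replicate 1. Of the 16 alternatives, 7 ended the call of NPIPA8 and 12 that of STIMATE-MUSTN1, leaving out that library among them. Of the largest falls, ZNF696 (-2.23), HTD2 (-1.92) and MEX3D (-1.46) were not called when any 1 of the 3 libraries of the 80 µM group or 40 µM replicate 2 was left out, nor ZNF696 and HTD2 without 40 µM replicate 3. FAM111B (-1.48) was not called without 40 µM replicate 3 or 80 µM replicate 2.

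Plasma cell and myeloma genes were lower in 7 of 19, against 12.1% of all genes, and higher in 2, a share near the 10.9% of all genes. The 2 were IRF4 (log2 0.30) and SLAMF7 (0.28), whose calls ended in 6 and 9 of the 16 alternatives. JCHAIN, the joining chain of antibodies, had 1770, 2290 and 2070 CPM at 40 µM and 1210, 1000 and 1290 CPM at 80 µM (log2 -0.81, SE 0.13, edgeR adjusted p = 0.00188), and the chemokine receptor CCR1 fell by 0.82 (SE 0.10). The count of 7 was 4 without control replicate 1 or 40 µM replicate 3, 3 without 80 µM replicate 1 or 2, and 2 without 80 µM replicate 3. SDC1 (CD138), the surface marker of plasma cells, had 509, 401 and 425 CPM at 40 µM and 669, 288 and 802 CPM at 80 µM and was not called.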

How the data were processed

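RNA from 9 libraries of MM.1S cells was read from a single table. Its gene counts and FPKM values were deposited by the authors, per the file headers, with raw counts as the unit used here. The FPKM columns, also deposited by the authors, served only to check that zeros matched. The submitters' processing notes list, with no role or order, HISAT2, SAMtools 1.3.1, CASAVA 1.8 and edgeR, and the build GRCh38. No source read for this work names the counting tool, annotation or strand setting. Genes overlapping others, or near-identical copies, are therefore uncertain.

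Counts were fitted for all 9 libraries in edgeR 4.0.16 (R 4.3.3): filterByExpr, TMM scaling and the quasi-likelihood test with dose as a factor, adjusted by Benjamini-Hochberg over the 15982 genes tested; intervals are 95%, and the step difference is a contrast of the same fit. CPM values use the TMM-scaled totals. limma 3.58.1 (voom) and DESeq2 1.42.0 were alternatives, as were RLE scaling, removal of the mitochondrial ribosomal RNAs, no filter, only the 6 libraries, the replicate block, each library left out, other thresholds and other margins. The code was tested on simulated data. Symbols came from the gene name table (42022 of 60675 identifiers), positions and overlaps from GENCODE 29, and promoters from RefSeq.

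The genes named were the 15 largest rises and falls with a mean of at least 5 CPM and no overlap, up to 10 genes each way that turned back or levelled off, and the 4 lowest p-values of each of 39 lists, plus genes chosen after their values were seen: those named in the report that these rules do not give. The genes and lists were chosen with earlier results of these data known.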

Additional observations from a re-analysis of the deposited data

How the results depend on the processing

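With the replicate number as a block, 108 genes went further, 28 levelled off, 9 turned back and 6 had unequal steps. The labels number the replicates and do not say whether the numbers pair the libraries. Deviations from the group means correlated at -0.139 to 0.0513 for same-numbered libraries. For libraries with different numbers they correlated at -0.108 to 0.116. These values cannot tell whether same-numbered libraries were handled together. With DESeq2 the counts were 364, 223 and 58 genes and, in an alternative added after seeing the data, 705 with unequal steps. With no filter on low counts they were 127, 39, 7 and 25. At an adjusted p under 0.01, 68 genes went further, 13 levelled off, 4 turned back, 1365 were added at 80 µM and 808 were flat and then added, and at under 0.1 the first 3 were 416, 218 and 72. The narrower levelling margin gave 9 levelled off and 370 flat and then added and the wider one, 2-fold, gave 127 levelled off. Leaving out each library in turn gave 2101 to 4059 genes called, 696 to 997 genes called at 2-fold or more, 86 to 168 genes that went further, 16 to 130 genes that levelled off, 7 to 38 genes that turned back, 1684 to 2995 genes added at 80 µM, 923 to 1785 genes flat and then added, 10 to 44 genes with unequal steps. Over all alternatives, 162 of 227 results for named genes kept their direction and their call, 65 lost the call in at least 1 alternative and 0 changed direction. The fit of only the 6 libraries at 40 and 80 µM holds no controls and so gave no classes and no step test. Counts of 3 or fewer per library, 0.183 to 0.234 CPM, set the floor for the lowest genes.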

Other observations

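Other gene groups also moved between 40 and 80 µM. In the autophagy and lysosome list 10 of 29 were higher and 0 lower (3 lower at an unadjusted p under 0.05), with WIPI1 at 35.8 to 49.9 CPM at 40 µM and 91.8 to 121 CPM at 80 µM (log2 1.43, SE 0.18) and the initiating kinase ULK1 at 0.98 (SE 0.12). In the NF-kB list 5 of 16 were higher and 1 lower (3 higher without 40 µM replicate 2 or without 80 µM replicate 2 or 3), and the non-canonical subunit RELB rose by 1.07 (SE 0.14) and the adhesion molecule ICAM1 by 1.10 (SE 0.14). Of 20 interferon-stimulated genes 6 were higher, including IRF9 (log2 1.18), OAS1 (1.12) and IRF7 (0.96), and 3 lower, a share near the 12.1% of all genes: USP18 (-1.62), IFI44 (-1.48) and MX1 (-0.62). Without 80 µM replicate 3, 1 of these 3 was called, and the call of USP18 ended in 9 of the 16 alternatives. Of 20 splicing regulators, 6 were lower, among them SRSF7 (-0.87), SRSF2 (-0.74) and SRSF3 (-0.50), and 3 were higher, among them the SR protein kinase CLK1 (0.72, SE 0.15), against 12.1% and 10.9% of all genes. The 3 higher were 1 without 40 µM replicate 2 or 80 µM replicate 1 or 2, and SRSF4, SRSF5, SRSF8, SRSF9 and SRSF11 were not called. ETV5, a target of ERK signalling, had 14.9 to 18.5 CPM at 40 µM and 69.4 to 70.6 CPM at 80 µM (log2 2.09, SE 0.14).

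Families picked by their symbols after the values were seen, and so given as description, moved as follows. Over all genes 12.1% were lower and 10.9% higher. Of 77 mitochondrial ribosomal proteins 23 were lower and 0 higher, of 22 nucleoporins 10 lower and 0 higher, of 8 CCT chaperonin subunits 5 lower and 0 higher, and of 56 polymerase subunits 26 lower and 1 higher. Of 25 histone demethylases and methyltransferases 10 were higher and 1 lower, and of 410 zinc finger genes named ZNF 39 were higher and 7 lower, near the 10.9% of all genes called higher. Of 1869 long non-coding or unclassified RNAs, 9.04% were called higher and 2.62% lower, against 11.9 and 14% of 12309 protein-coding genes.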
